A study of Mus musculus with 45 samples.

Results

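Germinal center (GC) B cells of S1PR4-/- mice were compared with the other B cells of the same kind of lymph node, to describe the GC program that forms without sphingosine-1-phosphate receptor 4 (S1PR4). The comparison took every deposited library of these populations, 6 of GC B cells and 4 of non-GC B cells, which are 10 of the 45 samples of the series. All came from draining popliteal lymph nodes on day 9 after 50 µg OVA and 5 µg LPS, emulsified with IFA to 20 µL, were injected into the hind footpad. GC B cells were sorted as B220+ GL7+ Fas+ and non-GC B cells as B220+ GL7- Fas-. Mice were of both sexes, 8 to 12 weeks old, and carried a constitutive S1PR4 deletion backcrossed at least 10 times to C57BL/6. Both groups carry the deletion, which removes S1PR4 from every cell of the mouse and not from B cells alone. The same populations from WT mice (6 GC B and 5 non-GC B libraries, same day and gates) were used only where the 2 genotypes are set side by side. Nothing in the labels says which libraries came from one mouse, so the p-values measure the spread between these libraries.

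Germinal centers are the sites in lymphoid follicles where antigen-activated B cells divide, mutate their immunoglobulin genes and are selected by follicular helper T cells. The transcriptional repressor BCL6 is required for the GC state, and MEF2B is one of the factors that drive its transcription. Cells alternate between a dark zone, where they divide and mutate, and a light zone, where they test the new receptor. Sphingosine-1-phosphate (S1P) acts on this tissue through receptors of opposite effect, since S1PR1 draws lymphocytes out of the node and S1PR2 confines B cells to the follicle center through Gα13.

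Depth was similar in all 10 libraries, with 28341979 to 36187748 expected counts. Levels are given as CPM, the share of a library's counts scaled to a common total, without regard to gene length. A gene is called higher or lower where its fold change was over 1.5 and its Benjamini-Hochberg adjusted p (FDR) in edgeR's quasi-likelihood test was under 0.05. The first principal component of the libraries, with 71.5% of the variance, separated GC B from non-GC B cells. Some libraries stood apart from their group. Immunoglobulin genes with Jchain took 4.74%, 9.18% and 19.0% of the counts in GC B libraries 1, 2 and 3, against 1.57% to 2.40% in GC B libraries 4 to 6 and 1.81% to 1.95% in non-GC B cells. Non-GC B library 1 had no counts for 1027 of the tested genes, against 344 to 402 in the other non-GC B libraries. On the second component (8.01% of the variance) GC B libraries 1, 2 and 3 (0.841, 17.7 and 32.7) and non-GC B library 1 (64.9) had positive values. The other GC B libraries (-15.0 to -12.9) and the other non-GC B libraries (-28.0 to -22.6) had negative values. What this component reflects was not tested. S1pr4 itself (chr10:81497747-81500132, GENCODE M21 on mm10) reached at most 4 counts in a GC B library and 6 in a non-GC B library, too few to be tested.

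Both markers of the population matched the sort. Bcl6 (chr16:23965052-23988852) was measured at 186 to 295 CPM (median 224) in GC B cells and at 133, 133, 124 and 145 in non-GC B cells (log2 fold change 0.78, SE 0.13, adjusted p = 0.000317). Mef2b (chr8:70139711-70167488) was measured at 245 to 445 CPM (median 377) against 2.86, 6.01, 4.20 and 8.91 (log2 fold change 6.02, SE 0.36, adjusted p = 1.19e-07). Neither overlapped between the groups. Bcl6 was already above 100 CPM in all 4 non-GC B libraries, however, while Mef2b stayed below 10 CPM there, so the 2 markers differ in how far they set the populations apart. Fas, a gate of the sort, was at 95.2 to 148 CPM against 7.64 to 10.3 and is no finding. Of 8 B cell identity genes, 6 were lower in GC B cells and none was higher, where 22.9% of all tested genes were called lower. Their summed level was 21430 to 28696 CPM in GC B and 49694 to 55597 CPM in non-GC B cells, so that both gates held B cell transcripts at high levels. Ms4a1, which encodes CD20, was one of those not called, at 1747 to 2469.7 CPM in GC B and 1646 to 1979.8 CPM in non-GC B cells.

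Markers of other cells were low, with some exceptions. Of 12 T cell markers, Cd3d, Cd3e and Cd3g did not pass the filter on low counts, and the summed list ran from 8.37 to 97.8 CPM in GC B cells and from 3.94 to 14.8 CPM in non-GC B cells, where Cd28 (below) was 92.3 CPM of the highest GC B sum. Of 8 dendritic cell markers, Siglech was at 0, 14.5, 16.1 and 25.2 CPM in the 4 non-GC B libraries and at most 0.667 CPM in GC B cells, and Ccr9 at 0, 3.33, 4.99 and 7.64 CPM and at most 0.584. Siglech and Ccr9 mark plasmacytoid dendritic cells, which carry B220, the marker both gates share. Both were at 0 in non-GC B library 1, the library with the most undetected genes. The summed dendritic cell list was nevertheless higher in GC B cells (73.4 to 120.1 against 12.7 to 49.3 CPM), with Flt3, a growth factor receptor of progenitors and dendritic cells, at 68.6 to 114 CPM against 2.99 to 6.76. Of 12 macrophage and monocyte markers, Lyz2 (12.6 to 105 CPM against 5.76 to 12.3), Cd68 (10.1 to 15.8 against 0.668 to 4.55) and Csf1r were called higher in GC B cells, while C1qa and C1qc reached at most 1.53 and 1.74 CPM, and the summed list, most of it Apoe, ran from 472 to 779 CPM against 391 to 675. The Csf1r call was lost without GC B library 2, 4 or 6 and without non-GC B library 1, 3 or 4. It was also lost with the DESeq2 test, which gave no adjusted p for it, and with GC B libraries 4 to 6 alone (adjusted p = 0.0535, edgeR). The summed neutrophil list stayed at or under 6.71 CPM in every library. The stromal and endothelial sum, nearly all Pecam1, was 98.7 to 138.7 CPM against 275 to 364. What these cells contribute to the comparisons was not tested.

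Across the transcriptome, 3411 of 13484 tested genes (25.3%) were called higher in GC B cells and 3087 (22.9%) lower, with a median log2 fold change of 0.03 over all tested genes. The counts below for gene lists are to be read against these shares. A lower level in sorted bulk RNA can come from fewer cells that carry a transcript or from less of it per cell. As CPM is relative to the other counts of a library, a lower level can also come from more counts of other transcripts. These cannot be told apart here.

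Nearly all GC B cell genes were higher. Of 18 members, 17 were higher and 1 was lower, with a median log2 fold change of 6.16. Among the 17 are Fas, a gate of the sort whose rise is no finding, and the markers Bcl6 and Mef2b given above. S1pr2 was at 357 to 569 CPM (median 523) against 1.43, 1.56, 2.43 and 1.36 (log2 fold change 8.19, SE 0.25, adjusted p = 2.52e-09). Every GC B library was high for S1pr2 and every non-GC B library near 0. Gcsam, which encodes a GC B cell signalling adaptor, was at 232 to 401 CPM (median 361) against 0, 0.873, 0.0793 and 0.325 (log2 fold change 10.05, SE 0.60, adjusted p = 1.23e-07). Rgs13, a GTPase-activating protein that dampens chemokine receptor signals, was at 46.3 to 104 CPM (median 71.8) against 0.732, 0.374, 0.344 and 0.472 (log2 fold change 7.28, SE 0.33, adjusted p = 2.13e-08). Nuggc, a GC-associated nuclear GTPase, was at 250.3 to 419 CPM (median 357) against 0, 2.09, 1.27 and 1.53 (log2 fold change 8.12, SE 0.63, adjusted p = 8.13e-07).

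Other members that rose included Basp1 (7.48), the elongation factor partner Eaf2 (6.92), the transcription factor Mybl1 (6.30), the guidance molecules Efnb1 (5.32) and Plxnb2 (4.95), the DNA glycosylase Neil1 (3.99) and the fatty acid elongase Elovl6 (1.81), all as log2 fold changes. Gcnt3 had 0 counts in all non-GC B libraries and 1533 in the GC B libraries, at least 349-fold higher at a floor of 3 counts over the non-GC B group. Klhl6, an adaptor of the ubiquitin system, changed least among the members that rose (0.97, SE 0.12), apart from Bcl6. Lmo2, a LIM domain protein used to mark human GC B cells, went the other way. Its level was 87.2 to 129 CPM in GC B cells and 271, 315, 345 and 303 CPM in non-GC B cells (log2 fold change -1.54, SE 0.11, adjusted p = 4.8e-07), with no overlap, and its log2 fold change in WT mice was -1.31.

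**Figure D1:**
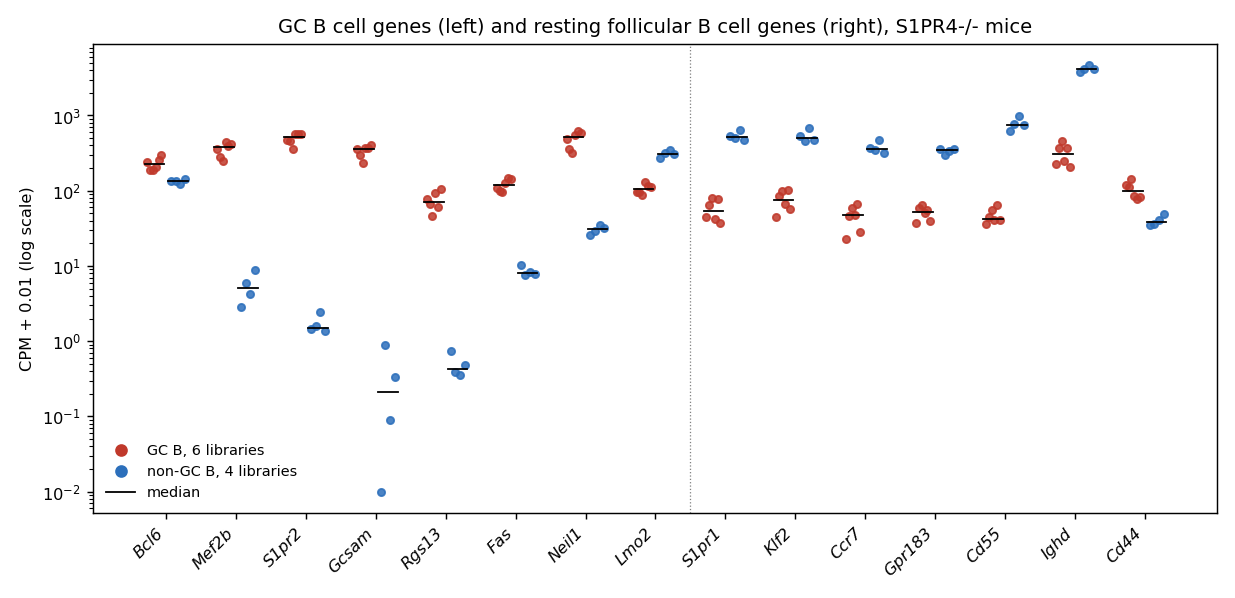
Levels of 8 GC B cell genes and 7 resting follicular B cell genes in S1PR4-/- mice, one point per library on a log axis of CPM + 0.01, with a bar at the median of each group. Bcl6 differs by less than the other GC B cell genes shown, Lmo2 and Cd44 go against the rest of their list, and no gene shown overlaps between GC B (6 libraries) and non-GC B cells (4 libraries).

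Genes of resting follicular B cells were lower in the same cells. Of 18 members, 15 were lower, 1 was higher and 2 were not called, with a median of -1.97. Homing and egress receptors were among them. Ccr7, which guides cells to the T cell zone, was at 23.1 to 66.0 CPM (median 47.2) against 373, 347, 475 and 319 (log2 fold change -3.06, SE 0.27, adjusted p = 2.12e-06). Klf2, the transcription factor that keeps lymphocytes quiescent and sustains S1pr1, was at 44.4 to 101 CPM (median 75.2) against 527, 459.8, 674 and 472 (log2 fold change -2.83, SE 0.23, adjusted p = 1.03e-06). Both were lower in every GC B library than in any non-GC B library. Gpr183, the oxysterol receptor that keeps B cells at the outer follicle, fell (-2.74, SE 0.15).

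Cell surface and survival genes of the resting state followed. Cd55, a regulator of complement, had the lowest value of the list, at 36.1 to 64.6 CPM (median 42.7) against 623, 767, 974 and 749 (log2 fold change -4.05, SE 0.18, adjusted p = 1.71e-08). Ighd, the constant gene of IgD, was at 209 to 462 CPM (median 304) against 3743, 4103, 4641 and 4193 (log2 fold change -3.74, SE 0.22, adjusted p = 1.2e-07). Log2 fold changes of the other members that fell were -2.64 for Bcl2, -2.01 for Cd38, -1.93 for Satb1, -1.86 for Fcer2a, which encodes CD23, -1.77 for Btg1, -1.53 for Foxp1, -1.24 for Il4ra and -1.12 for Cr2, which encodes CD21. The BAFF receptor gene Tnfrsf13c was at 515 to 718 CPM against 566 to 652 (log2 fold change -0.03, SE 0.11, adjusted p = 0.835), and Ccr6 was at 48.6 to 110.4 against 91.1 to 129.7 (log2 fold change -0.30, SE 0.21, adjusted p = 0.238), so that the groups overlapped for both. Cd44, an adhesion receptor of activated cells, was the 1 member that rose, at 78.5 to 143 CPM (median 98.5) against 35.5, 36.5, 41.3 and 49.0 (log2 fold change 1.35, SE 0.19, adjusted p = 6.77e-05).

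S1P receptor genes changed in opposite directions in cells that lack S1PR4. Of 14 tested members, 4 were higher and 3 lower, with a median of 0.21. S1pr1 (chr3:115710433-115715072) was at 37.6 to 79.4 CPM (median 54.5) in GC B cells and at 535, 503, 639 and 471 in non-GC B cells (log2 fold change -3.23, SE 0.22, adjusted p = 3.29e-07), opposite to S1pr2 (chr9:20962361-20976781). S1pr3, a receptor better known from endothelium and smooth muscle, was at 53.7 to 84.5 CPM (median 64.9) against 12.9, 18.0, 7.35 and 14.2 (log2 fold change 2.36, SE 0.22, adjusted p = 3.86e-06). All GC B libraries lay above all non-GC B libraries for S1pr3 and below them for S1pr1. S1pr5 reached at most 1.22 CPM in any library (log2 fold change 0.33, SE 0.85, adjusted p = 0.75). S1pr1 and S1pr2 changed in the same directions in WT mice. There S1pr1 was at 39.4 to 162 CPM in GC B cells against 460 to 552 in non-GC B cells, and S1pr2 at 336 to 573 against 0.713 to 6.85.

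Downstream of the receptors, Gna13 (1.08, SE 0.11) and Gna12 (0.96, SE 0.11), G protein subunits that act downstream of S1PR2, were higher, and Arhgef1, the exchange factor they activate, was lower (-0.71, SE 0.09). Arhgef1 was not called with GC B libraries 4 to 6 alone, a restriction chosen after the immunoglobulin share of the libraries was seen. Spns2, an S1P exporter, was at 1.80 to 3.61 CPM (median 2.65) against 71.6, 46.4, 96.0 and 43.8 (log2 fold change -4.61, SE 0.28, adjusted p = 1.27e-07), among the 10 largest falls by the rule given below for all genes. Rhoa, Rac2, Gnai3, Sphk2 and the S1P lyase gene Sgpl1 were not called.

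Among 19 tested chemokine receptor and positioning genes, 6 were higher and 9 lower (median -0.38). Cxcr3, a receptor induced in Th1 type responses, was at 46.4 to 202 CPM (median 136) in GC B cells and at 0, 3.37, 4.23 and 2.57 in non-GC B cells (log2 fold change 5.64, SE 0.77, adjusted p = 6.31e-05). Gpr34 (2.91) and the regulators of G protein signalling Rgs1 (4.46), Rgs2 (2.48) and Rgs10 (3.21) rose, as did the integrin subunit Itgb1 (1.81). Cxcr5, the receptor for the follicular chemokine CXCL13, fell (-0.89, SE 0.13). The partner integrins Itgb7 (-2.64) and Itga4 (-1.21) also fell, although Itga4 was at 84.7 CPM in its highest GC B library, within the range of the non-GC B cells, and was not called without non-GC B library 1. Cxcr4, the dark zone receptor, was at 36.0 to 50.0 CPM against 62.0, 34.5, 77.9 and 29.4 (log2 fold change -0.29, SE 0.24, adjusted p = 0.318), with non-GC B libraries on both sides of the GC B range.

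B cell transcription factors moved as single genes and not as a list, with 8 of 26 higher, 4 lower and 14 not called (median 0.10). Pou2af1, the coactivator OCA-B that GC formation requires, was at 1231 to 1573 CPM (median 1370.1) against 364, 412, 364 and 432 (log2 fold change 1.82, SE 0.10, adjusted p = 5.55e-08). Myb (3.61), Id2 (2.05), Tbx21 (2.02), which encodes T-bet, Ikzf3 (0.88) and Tcf3 (0.74), which encodes E2A, were higher. Klf3 fell most, at 15.3 to 31.1 CPM against 143 to 217 (log2 fold change -2.94, SE 0.20, adjusted p = 3.62e-07). Ebf1 (-1.48), Zeb2 (-1.10) and Ets1 (-0.94), a brake on plasma cell formation, were the other members that fell. Prdm1, Xbp1 and Irf4, the factors of plasma cells, are given with that program below.

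Dark zone genes were higher as a group and light zone genes were not. Of 10 dark zone genes, 8 were higher, none was lower and Cxcr4 and Foxo1 were not called (median 4.83). Foxo1, the factor that maintains the dark zone, was at 248 to 324 CPM against 337 to 377 (log2 fold change -0.36, SE 0.08, adjusted p = 0.00274), below the fold threshold. The members that rose were mostly genes of division, among them Hmmr (7.23), Plk1 (7.06), Ccnb1 (6.58) and Cdc20 (5.23). Of 16 light zone genes, 3 were higher, 5 lower and 8 not called (median 0.19).

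Cd86, a costimulatory ligand for T cells, was at 139 to 229 CPM (median 174) against 109, 66.6, 65.1 and 56.7 (log2 fold change 1.27, SE 0.20, adjusted p = 0.000206). The other light zone genes that rose were the signalling adaptor Traf1 (1.26, SE 0.20) and Bcl2a1b (0.90, SE 0.16). Egr3 (-2.59), Nfkbia (-1.14), Cd72 (-1.09), Cd40 (-0.90) and Cd83 (-0.89) fell. Cd83, the light zone surface marker, was at 556 to 779 CPM in GC B cells and at 1398, 1431, 621 and 1447 in non-GC B cells, where library 3 lay within the GC B range. With GC B libraries 4 to 6 alone, 5 of the 16 were higher and 6 lower.

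Somatic hypermutation and repair genes were higher or not called. Of 21 members, 15 were higher and none lower (median 0.83). Hmces, a protein that shields abasic sites, was at 438 to 680.4 CPM (median 612) against 68.5, 44.3, 51.3 and 52.6 (log2 fold change 3.44, SE 0.18, adjusted p = 4.3e-08). Polh, the error-prone polymerase that writes mutations at A and T bases, was at 44.6 to 66.5 CPM (median 59.2) against 5.73, 7.26, 6.06 and 7.29 (log2 fold change 3.12, SE 0.14, adjusted p = 1.91e-08). Exo1 (3.25), Polq (3.23), Lig4 (1.73) and the mismatch repair gene Msh6 (1.72) rose, and so did the uracil glycosylase Ung (1.03). Every GC B library lay above every non-GC B library for each of the genes of this paragraph given so far. Those not called included Trp53bp1, Rif1, Xrcc4, Xrcc5 and Parp1, with log2 fold changes between -0.31 and 0.52.

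Proliferation genes were higher almost without exception. All 30 mitosis and spindle genes were higher (median 6.46), and 31 of 34 DNA replication genes were higher with none lower (median 2.77). The summed level of the mitosis list was 5525 to 7571 CPM in GC B cells and 176 to 205 CPM in non-GC B cells. Mki67, the gene of the Ki-67 antigen, was at 307 to 518 CPM (median 389.5) against 0, 2.62, 0.476 and 1.36 (log2 fold change 8.51, SE 0.72, adjusted p = 1.53e-06). Cenpf, a kinetochore protein made in late cycle, was at 59.2 to 103 CPM (median 80.3) against 0.0318, 0, 0 and 0.0885 (log2 fold change 11.25, SE 0.44, adjusted p = 9.01e-09). Espl1, which encodes separase, was at 111 to 160.2 CPM (median 124) against 0.0318, 0, 0.264 and 0.974 (log2 fold change 8.63, SE 0.62, adjusted p = 4.68e-07). Bub1 (8.09) and Ccnb2 (8.02) came next in the list, and non-GC B cells were near 0 for all of these genes.

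Among replication genes, Mcm10, which activates the origin helicase, was at 79.5 to 121 CPM (median 95.3) against 1.3, 0, 0.450 and 0.384 (log2 fold change 7.53, SE 0.58, adjusted p = 7.25e-07). Cdc6, which loads that helicase, was at 106 to 162 CPM (median 136) against 1.56, 0.686, 0.502 and 0.502 (log2 fold change 7.41, SE 0.33, adjusted p = 1.71e-08). Mcm5, a helicase subunit present before division starts, differed less, at 629 to 983 CPM (median 881) against 83.2, 80.6, 83.2 and 97.6 (log2 fold change 3.30, SE 0.14, adjusted p = 1.15e-08). The GC B range lay above the non-GC B range for all of them. Rrm2 (6.30), Orc1 (5.14) and Cdc45 (4.61) were the next largest after Mcm10 and Cdc6. Cdt1 (-0.12, SE 0.08), Pold1 (0.22, SE 0.13) and Gins4 (0.54, SE 0.11) were not called.

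Promoters of 4 of these genes are shown because they carry the short motifs by which cycle genes are read as sets: CCAAT, bound by NF-Y, with TTTGAA, the cell cycle homology region of mitotic genes, and TTTCCCGC or TTTGGCGC, E2F sites of replication genes. Sequences are from RefSeq on GRCm38.p6, 5′ to 3′ on the gene's strand, 250 bases before to 20 after the annotated start, with every copy of these motifs, on either strand, in capitals.
Cenpf (chr1:189688067-189688336, minus strand): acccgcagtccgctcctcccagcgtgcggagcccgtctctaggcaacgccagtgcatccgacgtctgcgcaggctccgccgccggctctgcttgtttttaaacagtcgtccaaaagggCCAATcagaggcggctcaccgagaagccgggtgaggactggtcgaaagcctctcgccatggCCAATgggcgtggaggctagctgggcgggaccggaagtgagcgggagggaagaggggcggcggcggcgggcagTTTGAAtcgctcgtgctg
Espl1 (chr15:102296043-102296312, plus strand): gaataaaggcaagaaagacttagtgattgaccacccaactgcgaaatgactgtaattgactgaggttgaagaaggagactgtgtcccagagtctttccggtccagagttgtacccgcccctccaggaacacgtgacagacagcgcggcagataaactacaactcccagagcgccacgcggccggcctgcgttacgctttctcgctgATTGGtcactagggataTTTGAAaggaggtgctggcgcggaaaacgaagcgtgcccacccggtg
Cdc6 (chr11:98907901-98908170, plus strand): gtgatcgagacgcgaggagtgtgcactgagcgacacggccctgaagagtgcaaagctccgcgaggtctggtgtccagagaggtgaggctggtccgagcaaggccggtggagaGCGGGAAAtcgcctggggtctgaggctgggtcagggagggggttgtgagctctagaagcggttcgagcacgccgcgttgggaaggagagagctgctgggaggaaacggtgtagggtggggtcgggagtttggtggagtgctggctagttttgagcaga
Mcm5 (chr8:75109259-75109528, plus strand): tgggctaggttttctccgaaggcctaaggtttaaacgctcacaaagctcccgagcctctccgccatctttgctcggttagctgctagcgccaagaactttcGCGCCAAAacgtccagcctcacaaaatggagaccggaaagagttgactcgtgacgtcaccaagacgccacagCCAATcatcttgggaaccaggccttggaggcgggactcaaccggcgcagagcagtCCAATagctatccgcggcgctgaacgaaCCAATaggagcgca
The 2 mitosis genes and the 2 replication genes are those with the largest log2 fold change, among genes of at least 10 CPM in GC B cells, whose printed window held the motifs named for their list. The Mcm5 window also held CCAAT. In windows that ran to 50 bases after the start, 17 of 27 promoters of the mitosis list (63.0%, 25 of 30 genes matched by symbol) held both CCAAT and TTTGAA, against 5.16% of the promoters of all tested genes and 7.63% of those of the genes called higher. Of 30 promoters of the replication list (26 of 34 genes matched), 10 (33.3%) held an E2F motif, against 2.96% of the promoters of all tested genes and 4.61% of those of the genes called higher, and none of the mitosis promoters did. A match of letters is a description and does not show that a factor was bound.

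**Figure D2:**
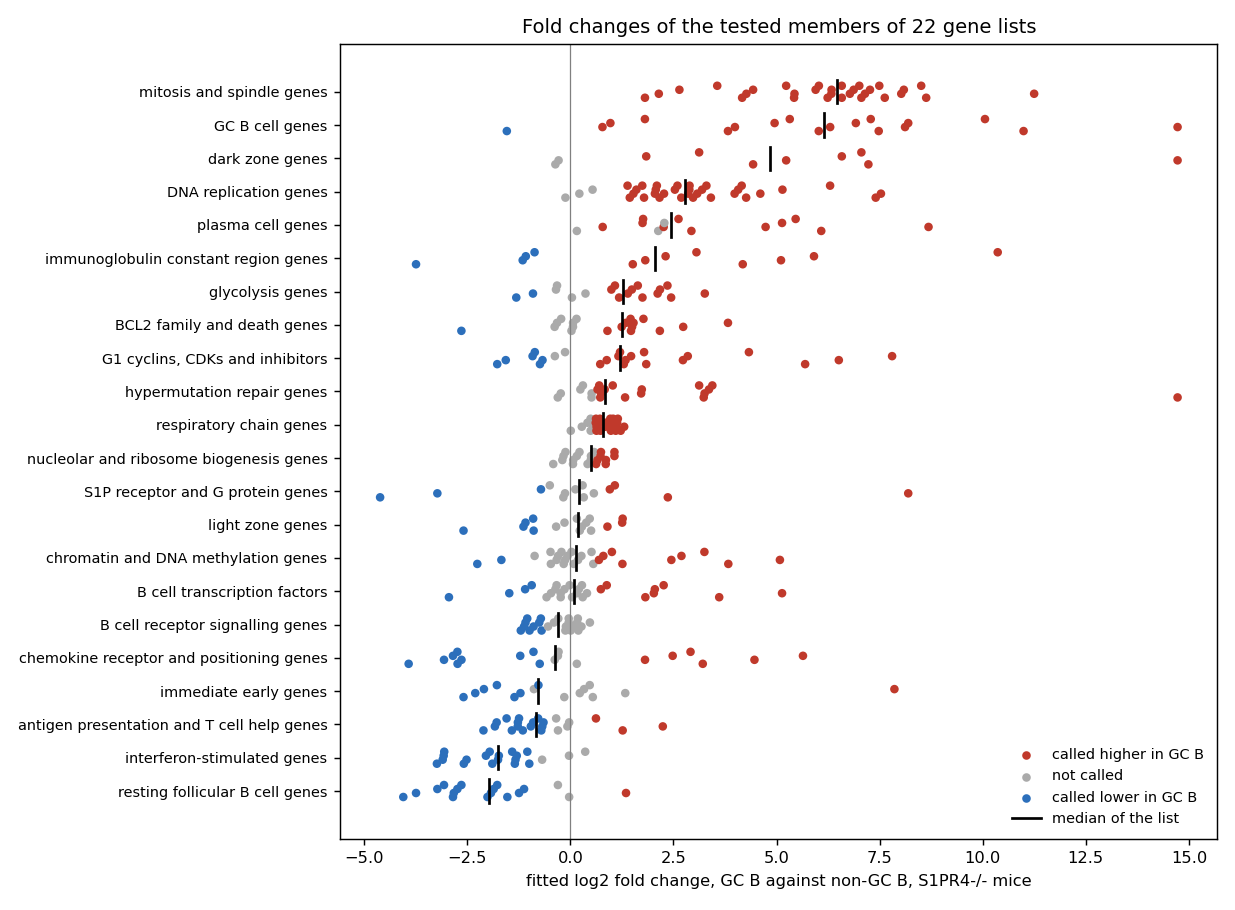
Fitted log2 fold changes of GC B against non-GC B cells in S1PR4-/- mice for the tested members of 22 gene lists, one point per gene, colored by call, with a bar at the median of each list. Mitosis genes lie wholly to the right (median 6.46) and resting follicular genes mostly to the left (median -1.97). Values of genes with 3 or fewer counts in a group, such as Gcnt3, depend on the prior count of the fit.

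Genes of the G1 cyclins, CDKs, E2F factors and their inhibitors changed in both directions. Of 23 tested members, 15 were higher and 6 lower (median 1.20). E2f8, a repressor of the E2F family, was at 67.7 to 101 CPM (median 82.7) against 0, 1.06, 0.291 and 0.118 (log2 fold change 7.80, SE 0.61, adjusted p = 8.8e-07), and its relative E2f7 (6.51), the activator E2f1 (4.33), Ccne2 (5.69) and the CDK inhibitor Cdkn2c (2.85) rose with it. Ccnd3, the D cyclin that GC B cells rely on, was at 458 to 755 CPM (median 686) against 309, 133, 143 and 141 (log2 fold change 1.84, SE 0.26, adjusted p = 7.27e-05), with non-GC B library 1 above the other 3 non-GC B libraries. The 6 that fell were the retinoblastoma family genes Rb1 (-0.68) and Rbl2 (-0.92), the CDK inhibitor Cdkn1b (-1.57) and the antiproliferative genes Btg1 (-1.77), Btg2 (-0.74) and Tob1 (-0.86).

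Energy metabolism genes rose by smaller factors. Of 18 glycolysis genes, 12 were higher and 2 lower (median 1.29). Hexokinase Hk2 (2.44), Tpi1 (2.35), Gapdh (2.17), Pgam1 (1.75) and the monocarboxylate carrier Slc16a1 (2.12) were among those that rose. Both glucose transporter genes of the list fell. Slc2a1, which encodes GLUT1, was at 48.7 to 52.3 CPM (median 51.0) against 74.8, 105, 99.0 and 102 (log2 fold change -0.91, SE 0.09, adjusted p = 5.96e-06), and Slc2a3, which encodes GLUT3, at 21.9 to 32.9 CPM (median 24.8) against 65.5, 62.7, 62.6 and 63.3 (log2 fold change -1.31, SE 0.11, adjusted p = 1.6e-06). In both cases the highest GC B library lay under the lowest non-GC B library, against the direction of the enzymes.

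Of 26 respiratory chain genes, 20 were higher and none lower (median 0.79), led by Cox5a (1.31), Sdhb (1.22), Cycs (1.15), Cox6a1 (1.13) and Atp5a1 (1.11). Of 20 nucleolar and ribosome biogenesis genes, 8 were higher and none lower (median 0.50), among them Nhp2 (1.07), Gar1 (1.07), Npm1 (0.86), Ncl (0.86) and Bop1 (0.74).

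Chromatin genes changed as single genes. Of 26 members, 9 were higher and 2 lower (median 0.13). Ezh2, the methyltransferase of Polycomb repressive complex 2 that GC B cells require, was at 124 to 181 CPM (median 153) against 25.4, 20.3, 23.1 and 26.6 (log2 fold change 2.69, SE 0.12, adjusted p = 2.13e-08), and its partners Eed (0.69) and Suz12 (0.80) rose less. Uhrf1 (5.08) and Dnmt1 (2.45), which copy DNA methylation onto new strands, Hmgb2 (3.83) and Lmnb1 (3.25) were also higher. The H3K4 demethylase gene Kdm5b was at 11.1 to 26.1 CPM against 76.5 to 85.6 (log2 fold change -2.26, SE 0.21, adjusted p = 3.32e-06), and Tet2, which oxidizes methylcytosine, at 4.50 to 10.3 against 20.6 to 30.9 (log2 fold change -1.67, SE 0.23, adjusted p = 7.05e-05). Kmt2d, Crebbp and Ep300, which are recurrently mutated in GC lymphoma, were not called (-0.33, -0.48 and -0.22).

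Receptor signalling genes were lower or not called. Of 23 members, none was higher and 9 were lower (median -0.29). The receptor chain Cd79a was at 1067 to 1575 CPM (median 1272) against 2489.8, 2636, 2923 and 2707 (log2 fold change -1.05, SE 0.11, adjusted p = 1.17e-05). Malt1 (-1.20) and Prkcb (-0.99), which pass the signal to NF-κB, fell without overlap, as did Cd72 and Cr2. Syk, Btk and Vav1 were not called, with log2 fold changes between -0.11 and 0.18. With GC B libraries 4 to 6 alone 7 members were lower, and Cd79b was among those no longer called.

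Most genes of antigen presentation and T cell help were lower. Of 22 members, 15 were lower and 3 higher (median -0.84). Cd74, the invariant chain, was at 13677 to 18417 CPM (median 16057) against 42667, 37271, 35730.5 and 39417 (log2 fold change -1.28, SE 0.12, adjusted p = 4.46e-06). H2-DMb1 (-1.83), H2-Ob (-1.55) and H2-Oa (-1.42), which edit or guard the peptide groove, fell more than the class II chains H2-Aa (-1.15), H2-Ab1 (-0.96) and H2-Eb1 (-0.78), although the differences between genes were not tested. Icosl, the ligand by which B cells engage helper T cells, was at 77.6 to 128 CPM (median 103) against 372, 501, 437 and 473 (log2 fold change -2.11, SE 0.15, adjusted p = 4.68e-07), and Cd274, which encodes PD-L1, was at 8.08 to 29.2 CPM (median 13.9) against 51.0, 56.6, 46 and 58.3 (log2 fold change -1.79, SE 0.28, adjusted p = 0.000162). The 3 that rose were the costimulatory ligands Cd86 and Cd80 (2.24) and the endocytic receptor Ly75 (0.62), which was not called without GC B library 3, without non-GC B library 2 or with GC B libraries 4 to 6 alone.

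Several death effector genes were higher, and BCL2 family guards changed in opposite directions. Of 19 tested members, 11 were higher and 1 lower (median 1.24). Fas, a gate of the sort, is among the 11, and its rise is no finding. Bcl2 was at 15.2 to 23.0 CPM (median 18.2) against 101, 133, 107 and 128 (log2 fold change -2.64, SE 0.14, adjusted p = 4.76e-08). Bcl2l1, which encodes the related guard BCL-XL, was at 21.2 to 30.3 CPM (median 26.4) against 10.4, 7.42, 6.43 and 6.35 (log2 fold change 1.77, SE 0.17, adjusted p = 4.34e-06). For each the groups did not overlap, in opposite directions. Bcl2l11 (1.53), which encodes BIM, and Bad (1.47) rose. Mcl1, the guard that GC B cells depend on, was not called (-0.22, SE 0.08).

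Immediate early genes, which report recent receptor stimulation, were lower in part. Of 15 tested members, 7 were lower and 1 higher (median -0.77). Nr4a1, a reporter of antigen receptor signals, was at 9.74 to 12.9 CPM (median 11.3) against 58.6, 62.1, 41.0 and 60 (log2 fold change -2.31, SE 0.13, adjusted p = 7.6e-08). Ier2 (-2.10), Ier5 (-1.78) and Jun (-1.36) fell beside Egr3. Atf3 rose from 0 counts in the non-GC B libraries to at most 1.18 CPM, at least 38.5-fold higher at a floor of 3 counts over the group. Without non-GC B library 1, 3 members were higher in place of 1, Egr1 and Dusp1 being the additions.

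Interferon-stimulated genes were lower in GC B cells, on a background that varied between non-GC B libraries. Of 20 members, 17 were lower and none higher (median -1.74). Ifit3 was at 14.3 to 41.3 CPM (median 17.8) in GC B cells and at 382, 268, 93.5 and 121 in non-GC B cells (log2 fold change -3.24, SE 0.42, adjusted p = 4.68e-05). Rtp4 was at 4.62 to 19.9 CPM (median 7.76) against 147, 89.4, 34.3 and 65.1 (log2 fold change -3.06, SE 0.45, adjusted p = 0.000111), and Ifit1 at 3.52 to 9.53 CPM (median 5.42) against 89.7, 57.7, 26.4 and 33.7 (log2 fold change -3.07, SE 0.37, adjusted p = 2.28e-05). Non-GC B libraries 1 and 2 were above libraries 3 and 4 for each of them, and all 4 were above every GC B library. By Xist and Ddx3y, non-GC B libraries 1 and 2 were female and libraries 3 and 4 male. A link of this split to sex was not tested. Oas2 (-3.10) and Rsad2 (-2.58) fell as well. The number of members called lower was 12 without non-GC B library 1 and 9 with replicate number as a block, although same-numbered libraries did not deviate together. Oas2, Oas3, Oasl2, Irf7, Usp18, Ifi44, Xaf1 and Ifih1 lost their calls in that fit, and Oas3, Irf7, Ifi44, Xaf1 and Ifih1 without non-GC B library 1. Without non-GC B library 2 the calls of Oas3, Irf7, Ifi44 and Ifih1 were lost, and that of Oas3 also without GC B library 1, 2, 5 or 6.

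Plasma cell genes were higher in GC B cells by amounts that depended on the library. Of 14 members, 11 were higher and none lower (median 2.45). Jchain, which joins IgM and IgA into polymers, was at 3264, 5081, 11612, 1191, 1408 and 1196 CPM in GC B libraries 1 to 6 and at 113, 81.9, 74.3 and 89.5 CPM in non-GC B cells (log2 fold change 5.46, SE 0.79, adjusted p = 9.69e-05). Xbp1, the factor of the secretory apparatus, was at 1079.6, 1586, 2987, 361, 422 and 358 CPM against 248, 249, 198 and 248 (log2 fold change 2.26, SE 0.62, adjusted p = 0.00735). Prdm1, which encodes BLIMP-1, the factor that ends the B cell program, was at 35.9, 70.1, 99.6, 8.20, 9.62 and 8.46 CPM against 0, 1.84, 1.03 and 1.51 (log2 fold change 5.13, SE 1.08, adjusted p = 0.00147). GC B libraries 1 to 3 were above libraries 4 to 6 for each, with library 3 the highest, and these are the libraries with the larger immunoglobulin share.

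Cd28, which long-lived plasma cells carry, followed the same split, at 37.6, 39.6, 92.3, 1.39, 4.95 and 2.77 CPM against 0.254, 0.436, 0.423 and 0.620 (log2 fold change 6.08, SE 1.31, adjusted p = 0.00173), and so did Derl3 (116, 166, 281, 24.2, 38.9 and 30.6 CPM against 5.22, 3.77, 3.20 and 4.28, log2 fold change 4.73, SE 0.78, adjusted p = 0.000273) and Creld2 (2.94). With limma voom the calls of Prdm1 (adjusted p = 0.0761) and Cd28 (adjusted p = 0.173) were lost. Sdc1, which encodes the plasma cell antigen CD138, was at 105, 125, 259.5, 9.59, 18.8 and 11.6 CPM against 16.9, 18.7, 27.7 and 17.1 (log2 fold change 2.13, SE 0.89, adjusted p = 0.053) and was not called. It was called, as higher, with the DESeq2 test (2.17, adjusted p = 0.0243), without the low-count filter, with all 4 B cell groups in the fit (adjusted p = 0.0118, edgeR) and without GC B library 4, 5 or 6 (adjusted p from 0.0254 to 0.0382). GC B libraries 4 and 6 lay under the non-GC B range for it and library 5 within that range. With GC B libraries 4 to 6 alone, 10 of the 14 were higher and 1 was lower. Jchain kept a log2 fold change of 3.82 (adjusted p = 2.88e-07, edgeR) and Xbp1 one of 0.69 (adjusted p = 0.000453), while Irf4 changed from 0.16 (adjusted p = 0.805) to -1.24 (adjusted p = 3.43e-05). How far plasma cells or plasmablasts in the GC gate account for these values was not tested. In WT GC B libraries Jchain ran from 2520 to 5004 CPM and Prdm1 from 16.6 to 54.8 CPM.

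**Figure D3:**
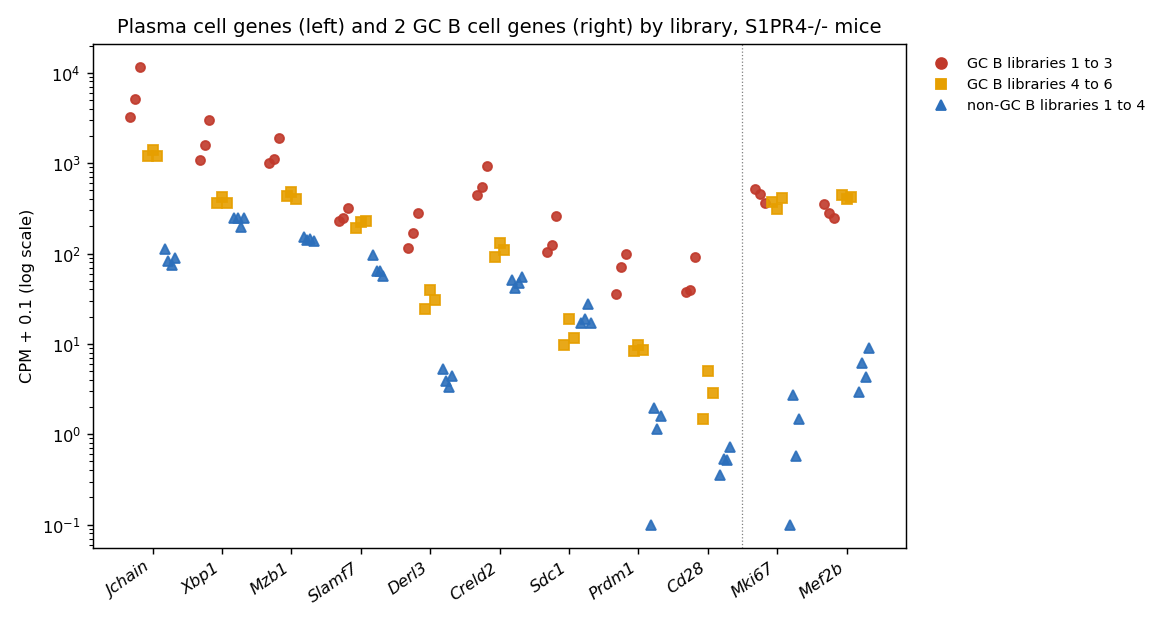
Plasma cell genes (left) and the GC B cell genes Mki67 and Mef2b (right) in each S1PR4-/- library, on a log axis of CPM + 0.1, with GC B libraries 1 to 3, GC B libraries 4 to 6 and non-GC B libraries 1 to 4 drawn apart. Jchain lies between 3264 and 11612 CPM in GC B libraries 1 to 3 and between 1191 and 1408 CPM in libraries 4 to 6, whereas Mki67 overlaps between them and Mef2b is lower in libraries 1 to 3 (245 to 355 CPM) than in libraries 4 to 6 (398 to 445 CPM).

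The share of switched constant region transcripts separated the groups in every library. Of the counts of heavy chain constant genes, the switched isotypes (Ighg1, Ighg2b, Ighg2c, Ighg3, Igha and Ighe) took 88.0%, 93.1%, 96.5%, 73.6%, 78.7% and 71.2% in the 6 GC B libraries and 8.74%, 10.2%, 5.34% and 11.4% in the 4 non-GC B libraries. The means were 83.5% ± 10.5 (SD, n = 6) and 8.91% ± 2.61 (SD, n = 4), a difference of 74.6 percentage points (two-sided exact permutation test, p = 0.00952, the smallest that 6 against 4 allows). The lowest GC B library was thus far above the highest non-GC B library, also among libraries 4 to 6. Counts are not scaled by length, so the shares compare groups and not isotypes with each other. They are shares of RNA and not of switched cells, and how far plasma cell transcripts raise them was not tested.

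By isotype, Ighg1 took 22.1% to 68.3% of these counts in GC B cells and 0.996% to 4.31% in non-GC B cells. Ighg2b took 13.4% to 44.6% against 1.57% to 4.17%, and Ighg2c 3.08% to 21.2% against 0.809% to 3.29%. Library 1 was the richest in Ighg1 and library 2 in Ighg2b, so that GC B libraries differed in their isotype makeup. Ighe, the constant gene of IgE, was at 785, 89.7, 181, 39.9, 98.5 and 127 CPM in GC B cells and at 0, 0.343, 0 and 0.325 in non-GC B cells (log2 fold change 10.36, adjusted p = 3.35e-05), while Igha stayed under 0.19% of the constant counts in all libraries. Of 12 constant region genes, heavy and light, 8 were higher and 4 lower, the latter being Ighm (-1.08), Ighd, Iglc2 (-1.16) and Iglc3 (-0.87), of which the light chain genes overlapped between the groups. The count of higher genes was 6 with GC B libraries 4 to 6 alone, where Igkc and Iglc1 were not called, 5 without non-GC B library 3, and 5 with limma voom, where Igha, Ighe and Igkc were not called (adjusted p of 0.0989 for Ighe). Igkc and Igha were not called without non-GC B library 2, 3 or 4, and Iglc1 and Iglc3 without non-GC B library 3.

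**Figure D4:**
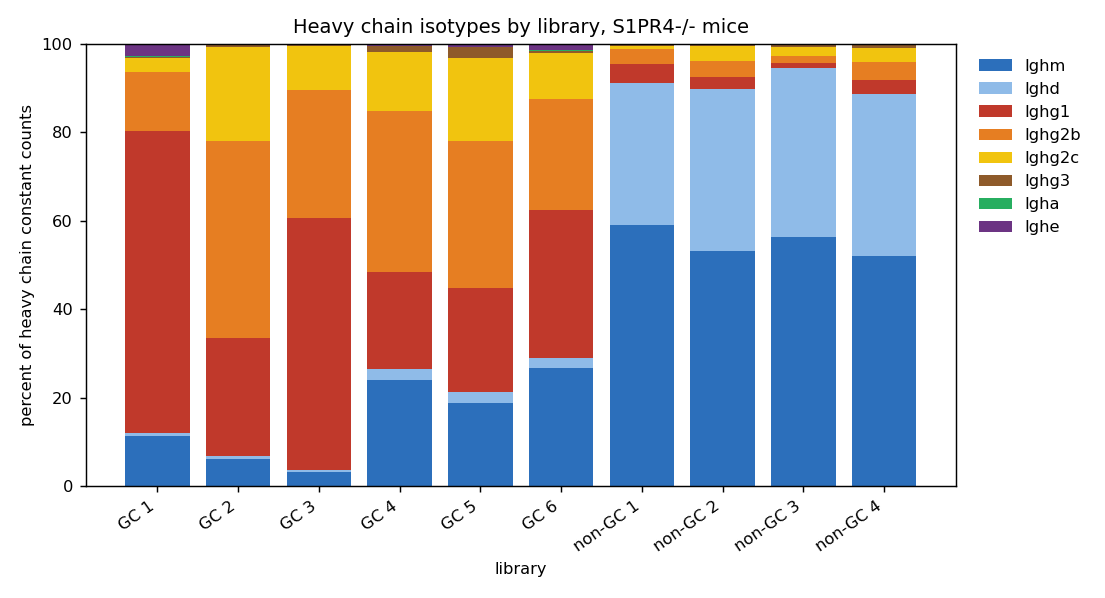
Heavy chain constant region counts of each S1PR4-/- library divided by isotype, as percent of the sum over 8 genes. Ighm and Ighd together make up most of each non-GC B library, and Ighg1, Ighg2b and Ighg2c most of each GC B library (switched share 71.2% to 96.5% against 5.34% to 11.4%).

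Leading variable segments took larger shares of the counts in GC B cells. These are shares of RNA and not of cells, and the part of plasma cell transcripts in them was not tested. The leading Ighv segment of each library took 11.6%, 9.49%, 16.2%, 10.2%, 10.6% and 8.60% of Ighv counts in GC B cells and 6.97%, 5.88%, 8.16% and 5.88% in non-GC B cells, over 185 segments (means 11.1% ± 2.70, SD, n = 6, and 6.72% ± 1.09, SD, n = 4, two-sided exact permutation test, p = 0.00952). For Igkv, over 160 segments, the leading one took 10.9%, 11.0%, 26.8%, 12.4%, 8.90% and 7.58% against 6.49%, 5.34%, 5.30% and 5.55% (means 13.0% ± 7.02, SD, n = 6, and 5.67% ± 0.557, SD, n = 4, exact permutation test, p = 0.00952). All GC B libraries were above all non-GC B libraries for both chains. Without GC B library 3 the difference in the leading Igkv share fell from 7.29 to 4.51 percentage points. The leading segment was a different one in each of the 6 GC B libraries, for Ighv (Ighv1-26, Ighv1-5, Ighv5-17, Ighv1-22, Ighv4-1 and Ighv1-55) as for Igkv (Igkv6-15, Igkv8-30, Igkv16-104, Igkv17-127, Igkv6-23 and Igkv3-2). In non-GC B cells Igkv6-15 led in all 4 libraries and Ighv1-64 in 3 of 4. The ranks of closely related segments are uncertain, since reads that match several were divided between them by estimation.

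Over all tested genes, the 10 largest rises and falls were taken among called genes with a mean of at least 10 CPM in the higher group, no overlap between the groups and a symbol that is no Gm number, Rik clone or receptor segment. The rises included Gcsam and Cenpf, given above. Parm1 (at least 1847-fold), Hbb-bh1 (at least 1074-fold) and Ehf (at least 494-fold, an ETS family factor) had no count in any non-GC B library, and the bounds take 3 counts over that group. Atp11a, a phospholipid flippase gene, had 1 count in non-GC B cells and 5497 in GC B cells, a ratio of 3754 (95% counting interval 674 to 148274). H1fx, a linker histone gene, had 3 counts against 3873, a ratio of 882 (302 to 4275). Gatm, an enzyme of creatine synthesis, was at 55.3 to 80.5 CPM (median 75.8) against 0, 0, 0.0529 and 0.384 (log2 fold change 9.27, SE 0.57, adjusted p = 1.62e-07), and Ankle1, an endonuclease of hematopoietic tissue, rose by 8.89 on the log2 scale.

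The 10 largest falls by this rule included Cd55 and Spns2, while some genes outside it had lower log2 fold changes. Sox4, a developmental transcription factor, was at 0.0556 to 0.486 CPM (median 0.215) against 15.0, 5.52, 12.2 and 9.80 (log2 fold change -5.45, SE 0.47, adjusted p = 1.79e-06). Rnf144a, a ubiquitin ligase gene, was at 4.65 to 9.53 CPM (median 6.71) against 93.1, 107, 133 and 109 (log2 fold change -3.99, SE 0.20, adjusted p = 3.48e-08). Plpp3, a phosphatase that degrades S1P and other lipid phosphates outside the cell, was at 0.333 to 1.34 CPM (median 0.874) against 16.2, 19.0, 16.8 and 14.2 (log2 fold change -4.17, SE 0.30, adjusted p = 4.7e-07). Log2 fold changes were -5.46 for Prss12, -4.51 for Tsc22d1, -4.32 for Wfdc17, -4.17 for Slc16a7 and -3.98 for Map4k3.

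The same comparison in WT mice, which shares no library with this one, gave 3298 genes higher (24.8% of 13324 tested) and 3074 lower (23.1%). Of the calls in S1PR4-/- mice, 5451 were also called in the same direction in WT, which is 83.9% of the S1PR4-/- calls and 85.5% of the WT calls, and 1 gene, Gna15, was called in opposite directions. Pearson's r between the log2 fold changes was 0.938 across 13102 genes, which are not independent replicates. Mef2b had log2 fold changes of 6.02 in S1PR4-/- and 5.18 in WT mice, Bcl6 of 0.78 and 0.64, S1pr1 of -3.23 and -2.61, and Ccr7 of -3.06 and -2.13. The list medians in S1PR4-/- and WT mice were 6.46 and 6.09 for mitosis genes, 6.16 and 5.61 for GC B cell genes, -1.97 and -1.73 for resting follicular genes, -1.74 and -1.24 for interferon-stimulated genes and -0.38 and -0.73 for chemokine receptor genes. The light zone median was of opposite sign, at 0.19 and -0.011, and 4 nucleolar genes were higher in WT mice against 8 in S1PR4-/- mice. Differences between the genotypes in these lists were not tested.

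A test of the difference itself, the interaction of population and genotype in edgeR over the 21 B cell libraries, called 0 of 14490 genes (0%) at an FDR under 0.05, with 664 genes at an unadjusted p under 0.05. Limma's voom also called 0, DESeq2 called 6 (Rbm14, Cdk14, Mgll, Gna15, Arhgap29 and Nhlrc1), and edgeR without non-GC B library 1 called 1 (Gna15). Among genes with a mean of at least 10 CPM in any group, the 5 with the lowest interaction p were Rbm14, Gna15, BC030867, Tmf1 and Hook3. Their adjusted p ran from 0.393 to 0.572 in edgeR. Gna15, which encodes a G protein α subunit and lies close to S1pr4 (chr10:81502306-81524225), was higher in GC B cells of S1PR4-/- mice (1.58) and had a log2 fold change of -1.19 in WT mice, and the S1PR4-/- call was lost in the block fit and without GC B library 1, 4, 5 or 6 or non-GC B library 2, 3 or 4. Its mean was 4.33 CPM in GC B and 1.44 CPM in non-GC B cells of S1PR4-/- mice, against 10.9 and 24.9 CPM in WT mice. A p that misses the threshold does not show that the shift is equal in both genotypes.

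**Figure D5:**
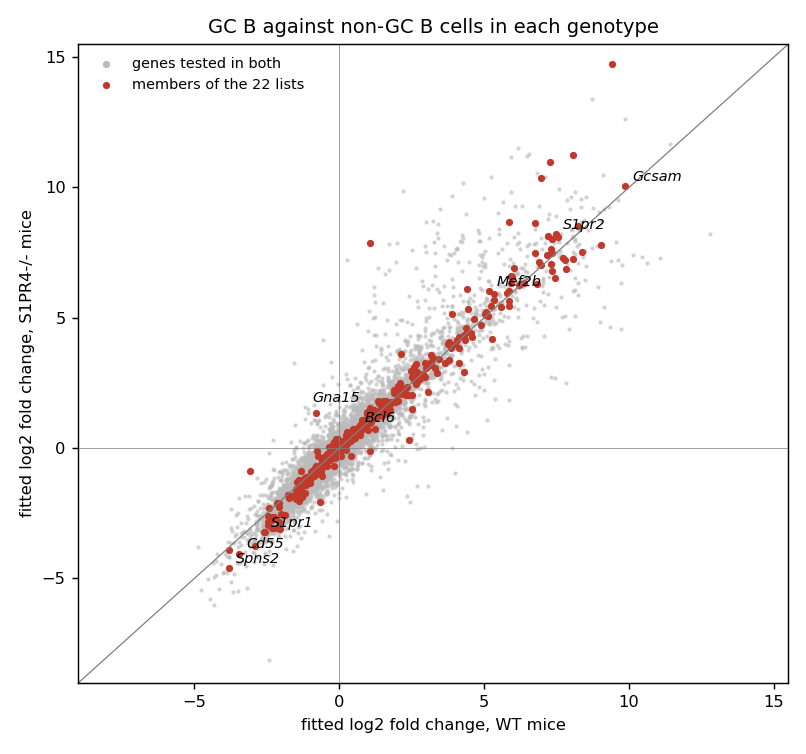
Fitted log2 fold changes of GC B against non-GC B cells in S1PR4-/- mice (vertical) and WT mice (horizontal), one point per gene tested in both (13102 genes), with the members of the 22 lists in red and a line of equality. Most points lie along the line (r = 0.938 across genes), points scatter more at high values, and Gna15 lies off it.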

How the data were processed

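RNA of sorted GC B and non-GC B cells was sequenced. The authors describe a capture of mRNA on oligo-dT beads, followed by libraries made with a stranded total RNA kit. The submitters' processing notes name cutadapt 2.10, STAR 2.5.3, the mm10 build and RSEM 1.3.0, with which the authors estimated expected counts, and the deposited table holds expected counts of 55450 genes in 45 samples. Gene symbols match GENCODE M21, from which coordinates were taken.

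Expected counts were rounded to whole numbers (8.83% were not whole). Genes were filtered with filterByExpr, libraries scaled by TMM, and groups compared with the quasi-likelihood test of edgeR 4.0.16 in R 4.3.3, with Benjamini-Hochberg adjustment. Calls required a fold change over 1.5 with an FDR under 0.05. Scripts were tested on simulated data. Alternatives were DESeq2 1.42.0, limma voom 3.58.1, other scaling, no filter, other samples in the fit, sex called from Xist and Ddx3y, a replicate block and leaving out each library. Single shares were compared by exact permutation tests.

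Members and gene lists were chosen with earlier results of these data known. Named were all GC B and resting follicular list genes. From each other list came the 2 to 5 largest changes at 10 CPM or more and the members against that list's majority. The 10 largest rises and falls of all genes and the S1P receptors were also named. So were the genes with the 5 lowest interaction p-values among those of 10 CPM or more in any group. Some genes that these rules cover are not reported here. Other genes were named after their values were seen. Intervals cover counting error only.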

Additional observations from a re-analysis of the deposited data

Results flagged for a closer look

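For each named gene and each share, the highest and the lowest library of a group were set against the rest of that group with Dixon's ratio of the gap to the range. Chance alone sets apart about 1 in 20 groups, and 40 values passed the limit over 482 groups, of which genes of one library are not independent. GC B library 1 was set apart above its group for Ighe (785 CPM) and below its group for Atf3 (0.222 CPM). GC B library 2 was set apart above its group for Crebbp (71.5 CPM), Iglc1 (1456 CPM), Iglc2 (712 CPM) and Iglc3 (563 CPM). GC B library 3 was set apart above its group for Cd274 (29.2 CPM), Ifi44 (2.25 CPM), Igha (239 CPM), Ighg1 (72503 CPM), Igkc (52902 CPM), Jchain (11612 CPM), Slc16a7 (1.76 CPM) and the leading share of Igkv counts (26.8%). GC B library 4 was set apart above its group for Csf1r (10.3 CPM), Dusp1 (31.6 CPM) and Lyz2 (105 CPM) and below its group for Rbl2 (81.3 CPM). GC B library 5 was set apart below its group for Cycs (101 CPM). Non-GC B library 1 was set apart above its group for Ccnd3 (309 CPM) and Klhl6 (501 CPM) and below its group for Gna15 (0.0636 CPM) and Irf4 (65.9 CPM). Non-GC B library 2 was set apart above its group for Arhgef1 (1132 CPM), Csf1r (2.34 CPM) and Mybl1 (1.37 CPM). Non-GC B library 3 was set apart above its group for Atp11a (0.0264 CPM), Sdc1 (27.7 CPM) and Wfdc17 (19.4 CPM) and below its group for Bad (13.9 CPM), Cd83 (621 CPM), Nr4a1 (41.0 CPM) and Xbp1 (198 CPM). Non-GC B library 4 was set apart above its group for Flt3 (6.76 CPM), Gatm (0.384 CPM), H1fx (0.0885 CPM), Hook3 (31.3 CPM), Mcm5 (97.6 CPM) and Slc16a1 (20.0 CPM) and below its group for Bcl2l11 (19.8 CPM). GC B library 3, the library with the largest immunoglobulin share, accounts for 8 of these values, among them Jchain, Ighg1 and Igkc. Values near 0, such as those of Atp11a and H1fx in non-GC B cells, rest on 1 to 3 counts. What sets these libraries apart was not tested.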

How the results depend on the processing

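Against the 6498 genes called, the number called under DESeq2 size factors, no low-count filter, the DESeq2 test, limma voom, all 4 B cell groups in the fit and sex as a covariate ran from 6472 to 7178 (6167 to 6434 shared with the 6498), and without 1 library from 6223 to 6651. A fold change over 2 left 4315 genes. Replicate numbers 1 to 4 are shared by the groups, but same-numbered libraries did not deviate together (correlations -0.061, 0.033, -0.071 and -0.007). Of 4 such pairs 1 was of the same sex, so the numbers were not taken as pairs. Other pairings of libraries were not tried. With replicate number as a block 5767 genes were called, and the interaction called 0. The interaction with genotype, 0 genes, became 6 with DESeq2, 0 to 1 without 1 library (1 without non-GC B library 1) and 11 with GC B libraries 4 to 6 only, a choice made after seeing the data. Those 11 are Fkbp11, Vsir, Sdc1, Tmem176a, Ccpg1, Slc30a7, Igkc and 4 variable segments, and the 3 libraries were picked for a low immunoglobulin share. With the same 3 libraries 6119 genes were called, and the differences in the leading Ighv share, the leading Igkv share and the switched share were 3.06, 3.96 and 65.6 percentage points, each at p = 0.0571 in the exact permutation test, the smallest that 3 against 4 allows. Without 1 library these 3 differences ran from 3.37 to 4.90, from 4.51 to 8.36 and from 72.0 to 77.1 percentage points.

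Among the named genes, 4 changed sign in some setting, all of them not called in the reported fit. Irf4 was -0.27 with limma voom, -0.047 with sex as a covariate, between -0.31 and 0.34 without 1 library (below 0 without GC B library 2 or 3) and -1.24 with GC B libraries 4 to 6 only. S1pr5 was between -0.086 and 1.54 without 1 library (below 0 without GC B library 5 or non-GC B library 1 or 3). Tnfrsf13c was 0.0049 without the low-count filter, between -0.11 and 0.011 without 1 library (above 0 without GC B library 2 or 3) and 0.16 with GC B libraries 4 to 6 only. Sdc1 was -0.59 with GC B libraries 4 to 6 only. The cause of these changes was not tested. With 4 non-GC B libraries and 1 to 3 counts for some genes there, the size of the largest fold changes is limited by depth.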

Other observations

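Hemoglobin beta genes stood out among transcripts that B cells are not known for. Hbb-bh1, an embryonic form, was at 17.7, 16.6, 12.6, 27.1, 36.9 and 30.2 CPM in GC B libraries 1 to 6 and at 0 in all 4 non-GC B libraries, and Hbb-bt, an adult form, at 11.2, 12.6, 10.9, 20.2, 18.1 and 20.9 CPM against 0.218, 0.948, 0.188 and 0.620 (log2 fold change 5.00, SE 0.48, adjusted p = 3.89e-06). Both were higher in GC B libraries 4 to 6 than in libraries 1 to 3, opposite to the plasma cell genes. Of 8 erythroid and platelet markers Hbb-bt was the 1 called higher, and Ppbp was at 0 in all 10 libraries. Hbb-bh1 and Hbb-bt may share reads with near-identical neighbours, so their split is uncertain.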
